A study of Mus musculus with 6 samples.

Results

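The genes described here are the subunits of protein kinase A (Prkaca, Prkacb, Prkar1a, Prkar1b, Prkar2a and Prkar2b), its inhibitor proteins (Pkia, Pkib and Pkig) and the anchoring protein gene Akap5. They were chosen by name, and every probe set that the platform annotation assigns to exactly 1 of these 10 symbols was taken. That gave 29 probe sets of the 45101 on the array. Total RNA of hippocampus from inhibitor-1 knockout mice (3 samples) and from wild-type mice (3 samples) was measured on 1 one-colour Affymetrix mouse array each. Inhibitor-1, the product of Ppp1r1a, is absent by design in the knockout group, and the labels name no further allele or treatment in either group. They give no strain, sex, age or targeting construct and do not give the number of animals behind the 3 arrays of a group, so p-values reflect only how far these samples spread, and that spread may be technical. In bulk tissue, fewer cells of a type and less RNA per cell cannot be told apart.

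Protein kinase A is held inactive as a complex of catalytic and regulatory subunits. Cyclic AMP (cAMP) binds the regulatory subunits and frees the catalytic ones, which in neurons phosphorylate receptors, channels and the transcription factor CREB. Inhibitor-1 is one of their substrates: once phosphorylated by protein kinase A it blocks protein phosphatase 1, so that dephosphorylation is restrained while the kinase is active. The comparison asks whether transcripts of this upstream kinase differ in hippocampus that lacks the substrate.

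Ppp1r1a itself had intensities of 272.5, 248.5 and 347.2 in the knockout samples, against 9061, 8370 and 10345 in the wild-type samples, at its only probe set 1422605_at. The means were 289.4 ± 51.5 in knockout and 9259 ± 1002 in wild type (SD, n = 3 each), with all 3 knockout arrays far below all 3 wild-type arrays (limma adjusted p = 3.58e-07). Of the knockout values, 2 lay under the level used to leave out dim probe sets, an intensity of 332.3, and no detection call was used here to set them above background. With these raised to that level, Ppp1r1a was at least 26.2-fold lower in knockout, on the log2(intensity + 16) scale. No source used here places this probe set with regard to the deleted sequence. All 6 arrays had the same trimmed mean intensity of 2500, and mean correlations between arrays were close within and across groups. They were 0.963 to 0.969 within the knockout group and 0.971 to 0.974 within wild type, while each knockout array had 0.970 to 0.971 with the wild-type arrays, above its value with its own group. Knockout replicate 1 had the lowest, 0.963, and without it 0 member probe sets passed, as with it. Of the 8 neuronal markers examined (among them Rbfox3, Camk2a and Slc17a7), all passed the filter on dim probe sets, as did all 11 genes that mark hippocampal fields or are enriched in them (among them Prox1, Wfs1 and Dsp).

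No transcript of the protein kinase A system passed the test. Of the 29 probe sets, 27 covering all 10 genes were bright enough to be tested. Of these, 0 were higher and 0 lower at a limma adjusted p under 0.05, against 0.0111% of all 26999 tested probe sets, which is 3 probe sets, all lower in knockout. Limma adjusted p was 0.988 to 0.999 over the 27. At an unadjusted p under 0.05 there was 1 member probe set, of Prkar2b, against 4.38% of all tested probe sets. Changes above 0 were found for 13 and below 0 for 14 of the 27, with a median log2 change of -0.01, against a median of 0.004 over all tested probe sets. The groups did not overlap for 4 of the 27, against 9.89% of all tested probe sets: 2 were higher in knockout (4.97% of all tested probe sets) and 2 lower (4.91%).

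**Figure D1:**
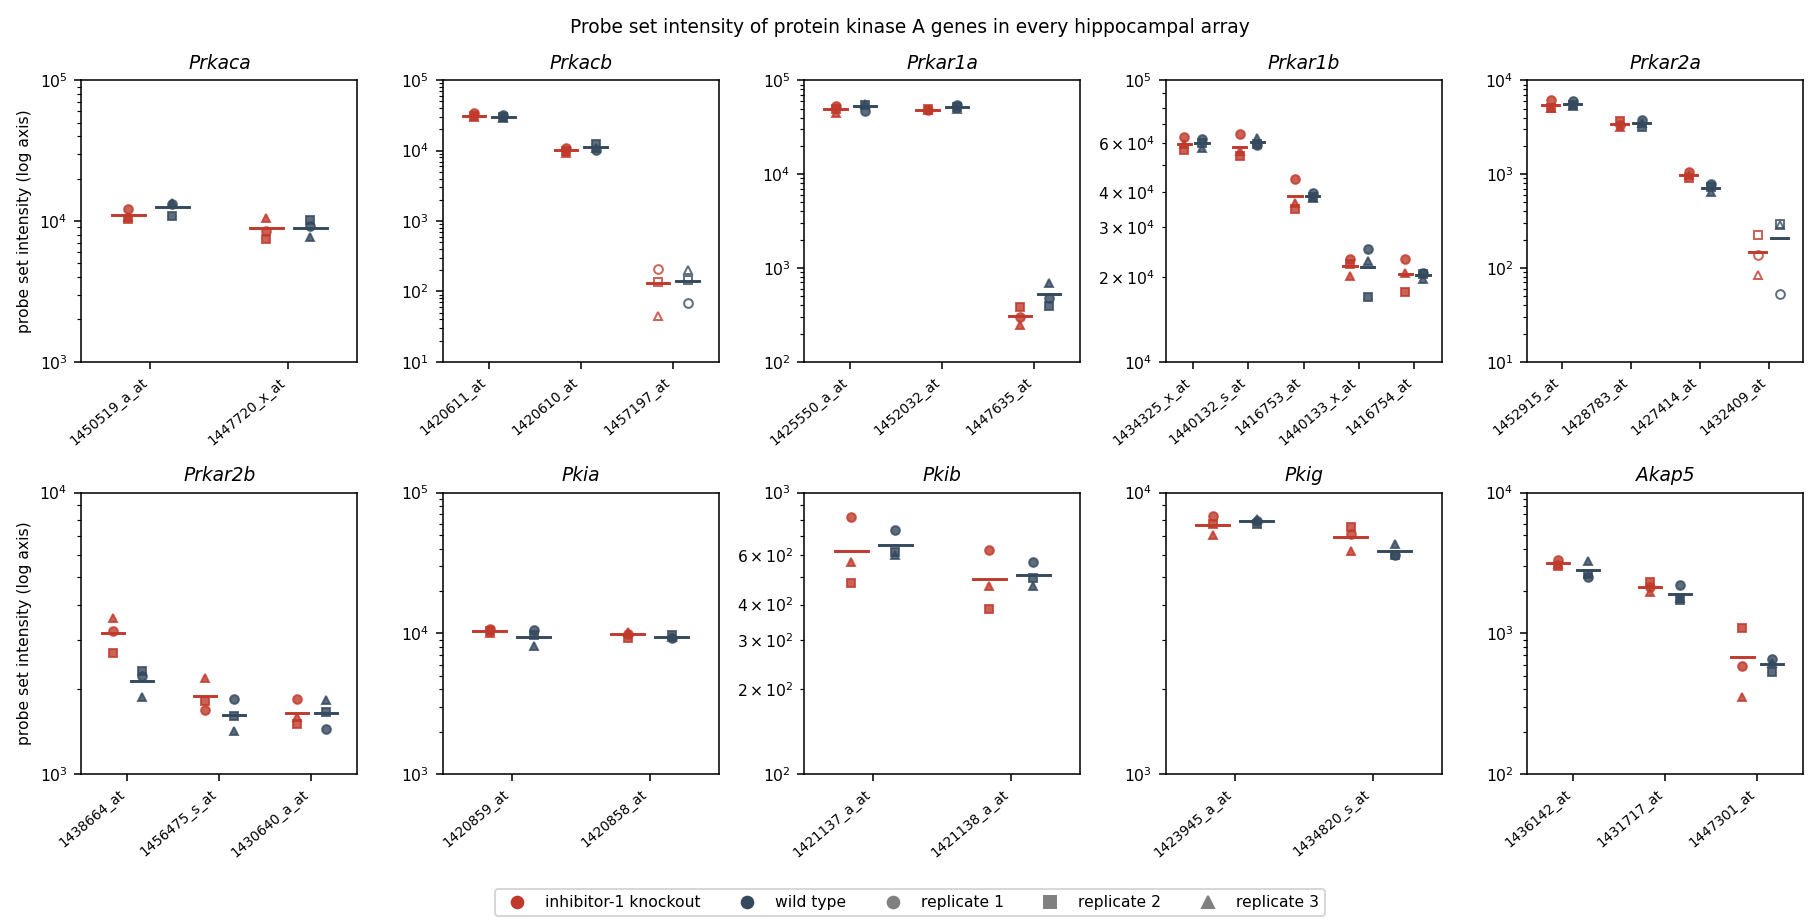
Intensity of all 29 probe sets in every array, 1 panel a gene, on a log axis; red symbols are inhibitor-1 knockout, blue-grey symbols wild type, symbol shapes are replicate numbers, short bars are group means, and open symbols mark the 2 probe sets too dim to be tested. For most probe sets the 3 knockout and 3 wild-type symbols lie in the same range, while those of 1438664_at (Prkar2b) and 1427414_at (Prkar2a) lie apart with knockout higher, and those of 1452032_at and 1447635_at (both Prkar1a) lie apart with knockout lower.

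The catalytic subunits carry the kinase activity. Prkaca encodes the widely expressed catalytic subunit alpha, and its brighter probe set, 1450519_a_at, had intensities of 12212, 10398 and 10627 in the knockout samples, against 13227, 10813 and 13480 in the wild-type samples. The groups overlapped, because wild type replicate 2 lay below knockout replicate 1. The log2 change was -0.17 (SE 0.10, 95% interval -0.40 to 0.05). The other Prkaca probe set, 1447720_x_at, had 8530, 7498 and 10522 in the knockout samples, against 9197, 10085 and 7650 in the wild-type samples, a log2 change of -0.03 (SE 0.13). The suffix x marks a probe set with probes that may also bind other transcripts, and its arrays did not keep the order seen at 1450519_a_at.

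Prkacb encodes catalytic subunit beta, which is abundant in brain. At 1420611_at its intensities were 33785, 30575 and 29900 in the knockout samples, against 32217, 29812 and 28936 in the wild-type samples, and in each group replicate 1 was highest. The log2 change was 0.05 (SE 0.07). Its 95% interval, -0.11 to 0.21, lay inside 1.5-fold in both directions, given the spread of these arrays only. Another probe set of the same source sequence, 1420610_at, had 11053, 9919 and 9389 in the knockout samples, against 10197, 12463 and 10790 in the wild-type samples, with a log2 change of -0.14 (SE 0.10). The last one, 1457197_at, stayed between 44.1 and 210.5 in the knockout samples and between 68.0 and 202.4 in the wild-type samples. That is under the filter level, and it was not tested.

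The type I regulatory subunits hold mostly soluble kinase in check. Prkar1a encodes the regulatory subunit that is expressed in nearly all tissues. Its probe set 1452032_at had 47992, 48942 and 48438 in the knockout samples, against 54429, 51337 and 49907 in the wild-type samples. All 3 knockout values lay below all 3 wild-type values, and the knockout values were within a coefficient of variation of 0.982%, against 4.45% in wild type. The log2 change was -0.10 (SE 0.06, 95% interval -0.23 to 0.04). At 1425550_a_at the groups overlapped, with 53392, 49008 and 44419 in the knockout samples, against 47295, 55053 and 56136 in the wild-type samples, and the log2 change was -0.11 (SE 0.09).

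The dimmest probe set of Prkar1a, 1447635_at, had 298.7, 386.3 and 245.6 in the knockout samples, against 480.4, 394.6 and 699.1 in the wild-type samples. The groups did not overlap, but knockout replicate 2 and wild type replicate 2 were close together. The log2 change of -0.71 was the lowest among the 27 and had an SE of 0.37, with a 95% interval from -1.54 to 0.11. The log2 distance from 1447635_at to 1425550_a_at was -7.25 ± 0.28 in knockout and -6.65 ± 0.39 in wild type (SD, n = 3 each). To 1452032_at it was -7.24 ± 0.30 in knockout and -6.62 ± 0.44 in wild type, and in both pairs the groups overlapped (two-sided exact permutation p = 0.2 for each, also after adjustment over 6 such pairs of probe sets). These pairs, like the others of the 6, were formed after the values were seen, from the probe set of largest change. All 3 Prkar1a probe sets had a change below 0, and 0 of them passed. When the log2 values of the 3 were averaged, the log2 change was -0.31 (SE 0.09, limma adjusted p = 0.921), a value to which the dim probe set gave most. The 8 neuronal markers had changes below 0 in the same arrays, 8 of 8, with a median of -0.13 and summed intensities of 405064 to 447200 in knockout against 437855 to 462407 in wild type. Of the 11 hippocampal region genes, however, 8 had changes above 0, with a median of 0.02. In both lists 0 genes passed. The part of either list in the Prkar1a values was not tested.

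Prkar1b encodes the type I regulatory subunit found mainly in the nervous system. Its 5 probe sets all lay at or above the 95.5 percentile of their arrays and had log2 changes of -0.06 to 0.03, with SEs of 0.07 to 0.12. At the brightest, 1434325_x_at, intensities were 62621, 56410 and 59204 in the knockout samples, against 62100, 59884 and 57270 in the wild-type samples. The ranges lie almost on top of each other, and the 95% interval of the log2 change ran from -0.15 to 0.14. Like 1440133_x_at of the same gene, 1434325_x_at has the suffix x, so its probes may also bind other transcripts. At 1416753_at the knockout samples were more spread, with 44637, 34858 and 36745, against 39887, 38430 and 38024 in the wild-type samples, a coefficient of variation of 13.4% against 2.53%. Knockout replicate 1 was the high one. Without it the log2 change of 1416753_at was -0.12, and without knockout replicate 2 it was 0.06.

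The type II regulatory subunits are those that most anchoring proteins bind best. Prkar2b, which encodes the type II subunit prominent in brain and fat, held the member probe set with the smallest p. At 1438664_at its intensities were 3217, 2700 and 3577 in the knockout samples, against 2236, 2322 and 1872 in the wild-type samples. Every knockout value lay above every wild-type value, and the means were 3164 ± 441 and 2144 ± 239 (SD, n = 3 each). The log2 change was 0.56 (SE 0.15, 95% interval 0.22 to 0.89), a 1.47-fold difference on the log2(intensity + 16) scale, but with 26999 probe sets tested it did not pass (limma adjusted p = 0.988). Its unadjusted p of 0.00354 ranked 71 among them.

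At the other probe sets of Prkar2b the groups overlapped. At 1456475_s_at, which the annotation derives from the same source sequence as 1438664_at, intensities were 1686, 1817 and 2197 in the knockout samples, against 1849, 1606 and 1423 in the wild-type samples. At 1430640_a_at they were 1850, 1510 and 1595 in the knockout samples, against 1444, 1666 and 1840 in the wild-type samples. The log2 change of 1456475_s_at was 0.22 (SE 0.17), and its 95% interval, -0.16 to 0.61, holds the 0.56 of 1438664_at. That of 1430640_a_at was 0.003 (SE 0.17, 95% interval -0.37 to 0.38). The log2 distance between 1438664_at and 1430640_a_at was 0.93 ± 0.20 in knockout and 0.38 ± 0.31 in wild type (SD, n = 3 each), without overlap (two-sided exact permutation p = 0.1). Between 1438664_at and 1456475_s_at it was 0.73 ± 0.18 in knockout and 0.40 ± 0.13 in wild type (SD, n = 3 each, two-sided exact permutation p = 0.1). With 3 arrays against 3, 0.1 is the smallest p that this test can give, and these pairs were 2 of 6 formed by a rule chosen after their values were seen (p = 0.15 for each, adjusted over the 6 exact tests). A difference in response between the Prkar2b probe sets was therefore not shown.

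**Figure D2:**
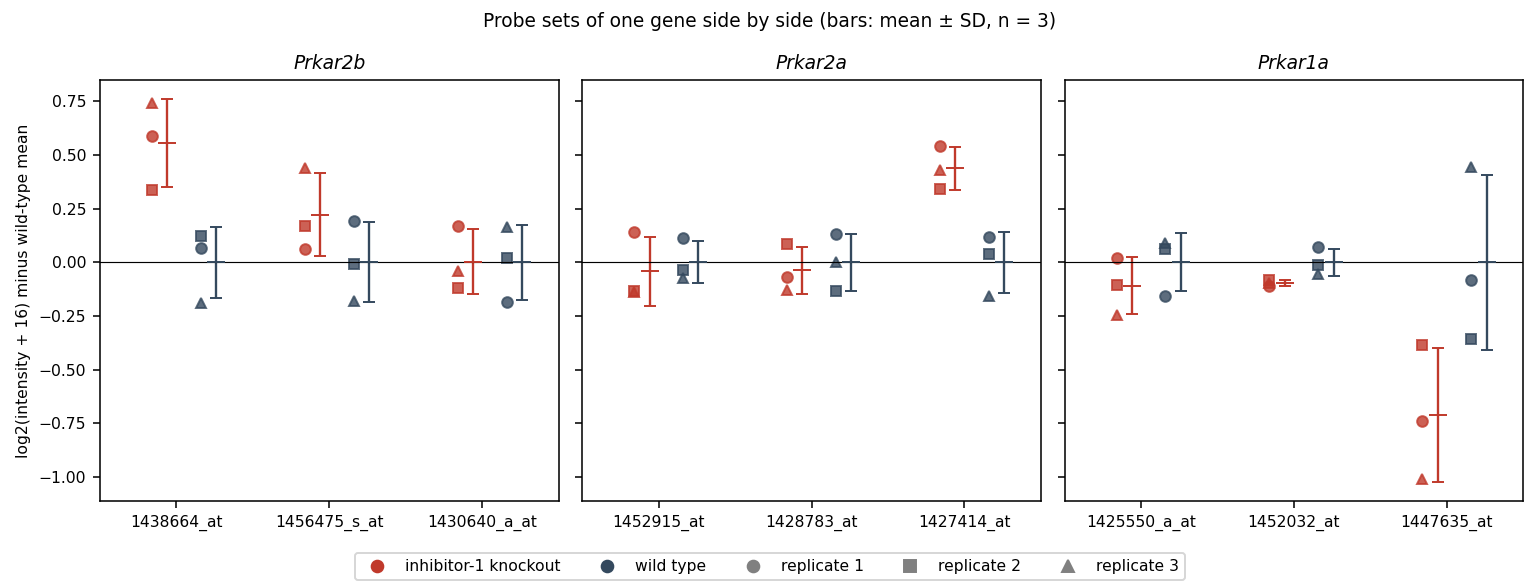
Tested probe sets of Prkar2b, Prkar2a and Prkar1a, as log2(intensity + 16) minus the wild-type mean of the same probe set; symbols are arrays (red, inhibitor-1 knockout; blue-grey, wild type), and bars are means with SD of 3 arrays. In each gene 1 probe set has a log2 change farther from 0 (0.56, 0.44 and -0.71) than the probe sets beside it.

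Prkar2a encodes the widely expressed type II subunit. Its dim probe set 1427414_at had 1049, 911.9 and 970.2 in the knockout samples, against 777.4, 736.7 and 640.1 in the wild-type samples, without overlap, a log2 change of 0.44 (SE 0.23, 95% interval -0.06 to 0.94). At its other tested probe sets the groups overlapped. At 1452915_at intensities were 6208, 5122 and 5115 in the knockout samples, against 6078, 5482 and 5338 in the wild-type samples, a log2 change of -0.04 (SE 0.11). At 1428783_at the log2 change was also -0.04 (SE 0.12), with 3305, 3679 and 3173 in the knockout samples, against 3798, 3161 and 3477 in the wild-type samples. The remaining probe set, 1432409_at, was under the filter level in its mean, with 85.0 to 222.6 in knockout and 52.7 to 292.4 in wild type, and was not tested. The log2 distance from 1427414_at to 1452915_at was -2.47 ± 0.08 in knockout and -2.95 ± 0.08 in wild type (SD, n = 3 each). To 1428783_at it was -1.78 ± 0.19 in knockout and -2.25 ± 0.17 in wild type (two-sided exact permutation p = 0.1 for each pair, the smallest possible, and 0.15 adjusted over the 6 pairs). These pairs too were formed after the values were seen, from the probe set of largest change. A difference in response between the Prkar2a probe sets was therefore not shown.

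Of the 6 tested type II probe sets, 4 had changes above 0 and 2 below, and 0 passed. Markers of tissue bordering the hippocampus had changes mostly above 0, and 0 of them passed either. In the list for meninges and fibroblasts, changes lay above 0 for 8 of 8 genes (median 0.42 on the log2 scale), with summed intensities of 33795 to 49142 in knockout against 29422 to 37431 in wild type. Of 10 choroid plexus and ependymal markers, 9 did (median 0.59), with sums of 222597 to 270036 against 199433 to 281943. The exception was Ttr, the brightest of the 10, with a log2 change of -0.02. Its intensities were 192773 to 216121 in knockout against 181791 to 242763 in wild type, so these sums are mostly Ttr. All defining markers of both lists, Col1a1, Col1a2, Dcn, Ttr, Kcnj13 and Cldn2 among them, were above the filter level. The mean log2 level of the meningeal list was 11.12, 11.78 and 11.58 in the knockout samples, against 11.08, 11.25 and 11.07 in the wild-type samples. It was highest in replicate 2 of either group, the array in which 1438664_at was lowest of the knockout group and highest of the wild-type group. The part of these markers in the Prkar2b and Prkar2a values was not tested.

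The protein kinase inhibitors bind the free catalytic subunit as a false substrate and, in the nucleus, help to export it. Pkia, which encodes the alpha form abundant in brain and muscle, had 10682, 10403 and 10086 in the knockout samples, against 10548, 9739 and 8111 in the wild-type samples, at 1420859_at. The knockout values were close together, at a coefficient of variation of 2.87%, and overlapped the wild-type range (log2 change 0.14, SE 0.10). Its second probe set, 1420858_at, had 9918, 9286 and 10298 in knockout, against 9240, 9716 and 9468 in wild type (log2 change 0.05, SE 0.08).

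Pkib, the beta form, was dim: 1421137_a_at had 821.5, 477.6 and 568.3 in the knockout samples, against 736.0, 612.7 and 597.7 in the wild-type samples. Its other probe set, 1421138_a_at, kept the same order of arrays within the knockout group, with 622.8, 386.4 and 465.8, against 567.8, 495.9 and 464.0 in wild type. Both had knockout replicate 1 highest and replicate 2 lowest. Their log2 changes were -0.09 and -0.07 with SEs of 0.30 and 0.32, and the 95% interval of the first, -0.74 to 0.56, was wider than that of any Pkia or Pkig probe set.

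Pkig, the gamma form, had 8276, 7734 and 7084 in the knockout samples, against 7930, 7739 and 8043 in the wild-type samples, at 1423945_a_at, a log2 change of -0.04 (SE 0.09). At 1434820_s_at the values were 7122, 7552 and 6181 in knockout, against 6005, 6006 and 6541 in wild type. Here 2 of the 3 knockout arrays lay above all wild-type arrays, and the log2 change was 0.16 (SE 0.10, 95% interval -0.06 to 0.39).

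Akap5 encodes a membrane-bound scaffold that places type II protein kinase A, calcineurin and protein kinase C beside receptors and channels at synapses. At 1436142_at its intensities were 3316, 3018 and 3101 in the knockout samples, against 2527, 2638 and 3248 in the wild-type samples. Wild type replicate 3 alone reached into the knockout range. At 1431717_at they were 2120, 2301 and 1966 in the knockout samples, against 2190, 1720 and 1773 in the wild-type samples, and here wild type replicate 1 did so. Both log2 changes were 0.17, with SEs of 0.13 and 0.16. The dimmest probe set, 1447301_at, had 586.0, 1086 and 353.6 in the knockout samples, against 657.0, 528.4 and 618.4 in the wild-type samples. Its log2 change of 0.03 had the highest SE among the 27, 0.38.

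**Figure D3:**
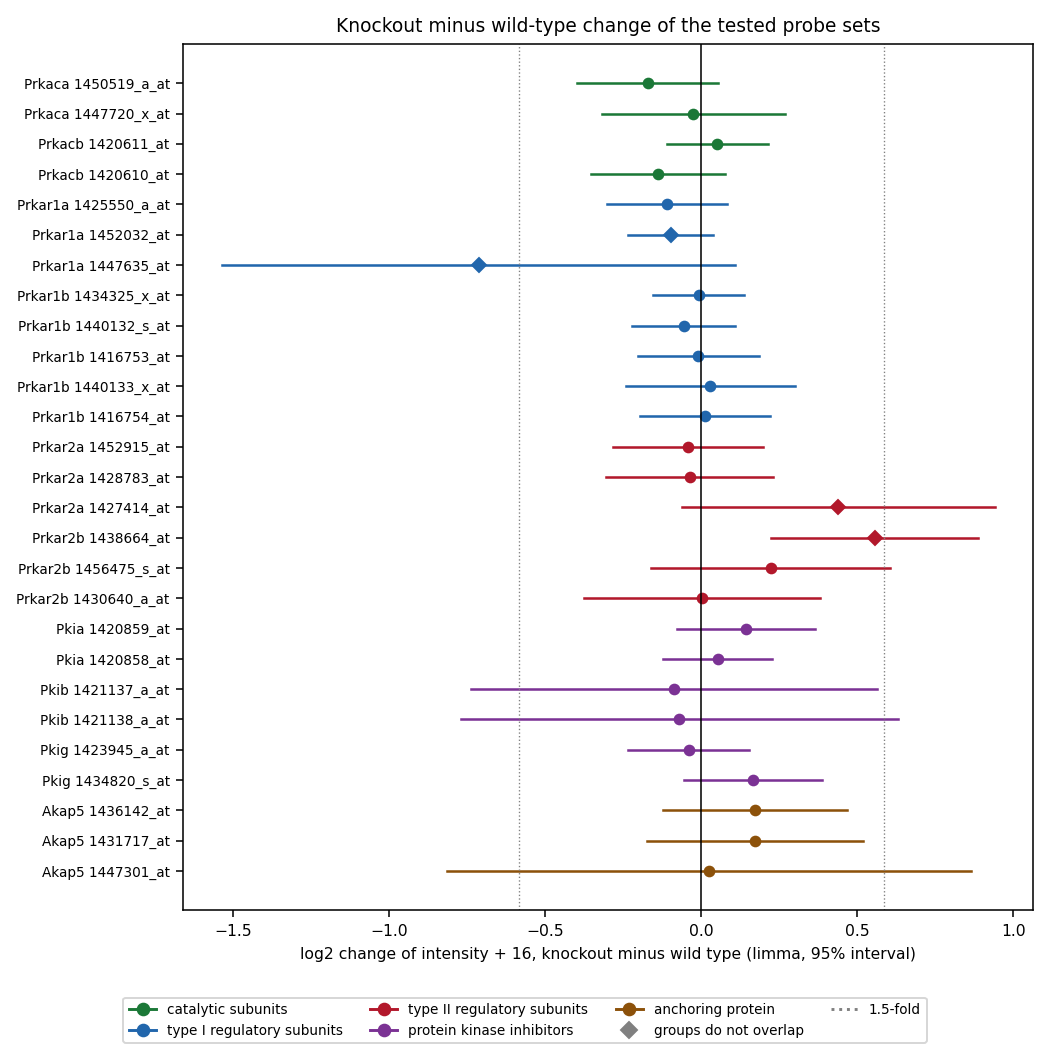
Log2 change, knockout minus wild type, with its 95% interval from limma for the 27 tested probe sets, coloured by role; diamonds mark probe sets whose groups do not overlap, and dotted lines mark 1.5-fold. The interval of 1438664_at (Prkar2b) is the only one of the 27 that leaves out 0, and 20 of the 27 intervals lie between the dotted lines.

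The precision was better for these probe sets than for most, but close to that of other bright ones. Of the 27 probe sets, 16 were among the 9000 brightest tested. The median SE was 0.11 for the 27, against 0.18 over all tested probe sets. Among the brightest it was 0.091 for the 16 members and 0.097 for all 9000. The 95% interval lay inside 1.5-fold in both directions for 20 of the 27 (74.1%), against 54.8% of all tested probe sets. These 20 included all 4 of the catalytic subunits and all 5 of Prkar1b. The 7 others were 1447635_at (Prkar1a), 1427414_at (Prkar2a), 1438664_at and 1456475_s_at (Prkar2b), both of Pkib, and 1447301_at (Akap5).

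Tested probe sets of the same gene all had the same sign of change in 6 of the 10 genes: above 0 for Prkar2b, Pkia and Akap5, and below 0 for Prkaca, Prkar1a and Pkib. They had mixed signs for Prkacb, Prkar1b, Prkar2a and Pkig. With 1 probe set a gene, the one with the highest mean, 4 genes had a change above 0 and 6 below, with a median log2 change of -0.02, against 0.0003 over 12493 genes. The arrays also shared an order. Knockout replicate 1 was the highest of its group for 17 of the 27 probe sets, against 33.1% of all tested probe sets, and wild type replicate 1 for 15 of the 27, against 31.3%. Knockout replicate 1 was the lowest for 2 of the 27, against 40.3% of all tested probe sets. These shares were not matched for brightness, and the 27 probe sets come from only 10 genes. The median intensity of replicate 1 was the lowest in either group, 541.5 in knockout and 573.8 in wild type, and the part of this in the members' order was not tested.

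Of the other genes, the 3 whose log2 values followed Prkar2b 1438664_at most closely over the 6 arrays were Dido1, Tmem33 and Usp40. Their Pearson correlations with it were 0.997, 0.984 and 0.983, as the highest of 12492 genes, of which 33 exceeded 0.95. For this ranking each gene was represented by its tested probe set of highest correlation, not by its brightest. Dido1 had 4992, 3765 and 5536 in the knockout samples, against 2830, 3145 and 2336 in the wild-type samples, at 1456405_at. The 6 points of each correlation are the same 6 arrays in both groups, so a difference between groups enters it, and 0 of the 3 genes passed the test (limma adjusted p = 0.988 for each).

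CREB, a target of protein kinase A, binds the cAMP response element, so the promoter windows of these genes were searched for its full letters, TGACGTCA, and for its core, TGACG or CGTCA, on both strands. The full element contains both core spellings. Windows ran from 250 bases before to 50 after each start in RefSeq (GRCm38.p6), and 9 of the 10 genes had windows, 25 in all. The full element lay in 2 of the 25, both of Prkar1a and both the same site, against 1.79% of all promoter windows. The core lay in 8 of the 25 (32%), against 20.8% of all windows. The 30 bases around the full element, or otherwise around the core nearest to a start, are shown for each gene with a match, 5′ to 3′ on the gene's strand and with the match in capitals, so that the full element of Prkar1a can be set beside the cores of the other subunits.
Prkaca, chr8:83972960-83972989, plus strand: gggctgcgggggCGTCAcggacagaggact
Prkacb, chr3:146813031-146813060, minus strand: ggggcttgaccgCGTCActtccggcgcgcc
Prkar1a, chr11:109650889-109650918, plus strand: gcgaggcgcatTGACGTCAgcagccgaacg
Prkar1b, chr5:139150033-139150062, minus strand: tagagggcggagTGACGggcaggaggacga
Prkar2a, chr9:108692127-108692156, plus strand: cgcggccgcgtgCGTCAcaacccgggcgcc
Pkig, chr2:163693814-163693843, plus strand: gtttgacaaatgTGACGggcctgggatgca

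The matches begin 6 bases before an annotated start in Prkaca, 102 in Prkacb, 49 in Prkar1a, 49 in Prkar1b, 4 in Prkar2a and 211 in Pkig. The Prkar1a element also lies in the window of another Prkar1a start and begins 38 bases after that start. The windows of Prkar2b, Pkib and Akap5 held neither spelling. The genes with a core in a window were thus 4 of the 4 catalytic and type I subunits, Prkar2a and Pkig. That is 6 of the 9 genes with a window (66.7%), against 23% of all genes with one. These 9 genes had 25 windows, while all 27025 genes had 32851. The members thus had more windows a gene to hold a match, and the 2 shares by gene are not like for like. Prkar2a, with a core, and Prkar2b, without one, each held 1 probe set higher in knockout without overlap, and 0 of their probe sets passed. A link between a match and a change was not tested. A match is a description of letters and shows no binding. None of the 10 genes lies on chromosome 15, which carries Ppp1r1a (0 of 10, by gene ID in the RefSeq table).

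The rest of the cAMP pathway was read from 4 lists of 76 genes, of which 62 had a tested probe set. Of these, 0 were higher and 0 lower at a limma adjusted p under 0.05, and 0 had an unadjusted p under 0.05. With 1 probe set a gene, the same calls were made for 0.016% and 4.75% of all 12493 tested genes. Log2 changes were above 0 for 33 and below 0 for 29, with a median of 0.02. Of 20 measured other A-kinase anchoring proteins, 14 had a change above 0 (median 0.06), and the smallest p belonged to Myrip (0.18, SE 0.10) and Sphkap (0.14, SE 0.08), an anchoring protein of type I kinase. Sphkap had 24521, 23925 and 23457 in the knockout samples, against 23839, 19735 and 21985 in the wild-type samples, and the groups overlapped.

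Of 13 measured genes of cAMP synthesis, adenylyl cyclases and G protein alpha subunits, 7 had a change above 0 (median 0.03). Adcy8, a calcium-stimulated adenylyl cyclase, had 2505, 2705 and 2578 in the knockout samples, against 1779, 2453 and 2142 in the wild-type samples, without overlap (log2 change 0.30, SE 0.15, limma adjusted p = 0.988). Gnai3, an inhibitory G protein subunit, had 7084, 6843 and 6736 in knockout, against 6292, 6028 and 6213 in wild type, also without overlap (0.16, SE 0.08, limma adjusted p = 0.988). These were the 2 of the 62 pathway genes whose groups did not overlap, both higher in knockout. Of all tested genes, 10.5% did not overlap and 5.34% did so with knockout higher.

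Of 13 measured cAMP phosphodiesterases, 5 had a change above 0 (median -0.03), with the smallest p for Pde2a (-0.09, SE 0.07) and Pde4a (-0.18, SE 0.14). Of 16 other measured effectors, regulators and substrates, 7 had a change above 0 (median -0.03). Rapgef3, a cAMP-activated exchange factor that acts apart from the kinase, had 1404, 1821 and 1168 in the knockout samples, against 2132, 1932 and 1682 in the wild-type samples, so its log2 change was -0.40 (SE 0.20, with a limma adjusted p of 0.988). Ppp1r1b, which encodes a relative of inhibitor-1 and also a substrate of protein kinase A, had a log2 change of 0.19 (SE 0.13).

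**Figure D4:**
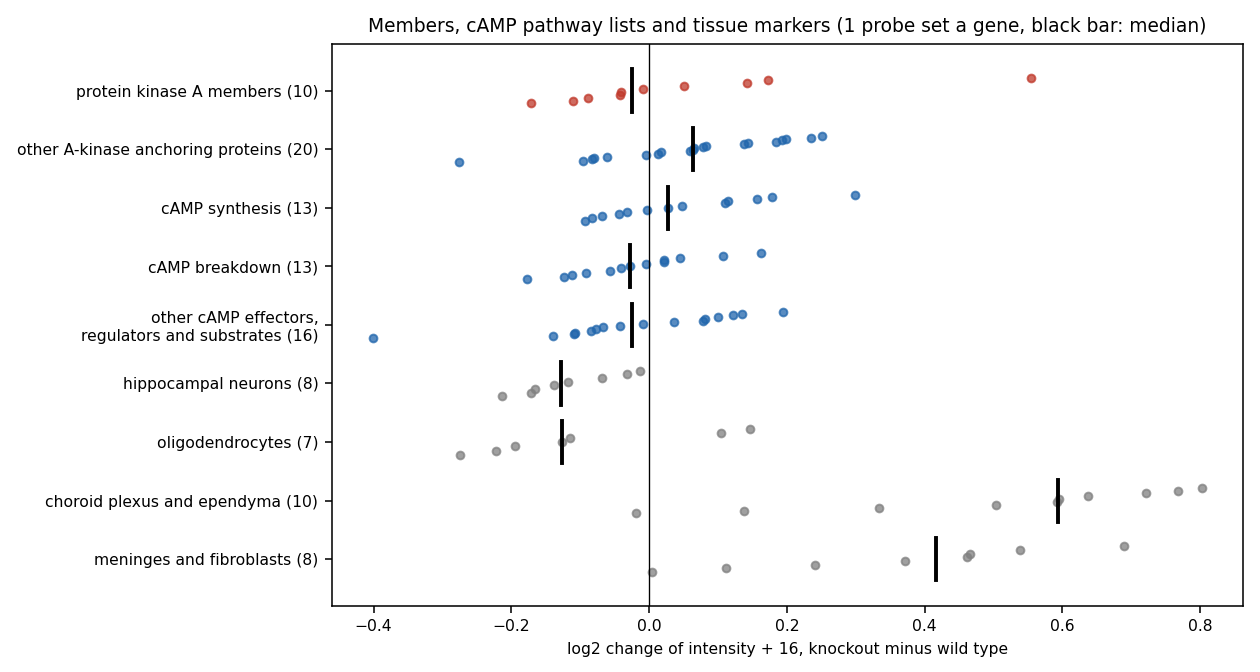
Log2 change, knockout minus wild type, of the 10 protein kinase A genes, 4 cAMP pathway lists and 4 marker lists, with 1 probe set a gene and the number of measured genes in brackets; black bars are medians. The members and the pathway lists have medians of -0.03 to 0.06, neuronal and oligodendrocyte markers lie mostly below 0, and choroid plexus and meningeal markers mostly above.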

How the data were processed

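Probe set intensities on a linear scale were used as the authors deposited them. No source used here names the software behind them. The mean after trimming 2% of values at each end was 2500 on every array, so the authors had scaled them. Gene symbols came from the platform annotation, by 1 symbol per probe set. Values were taken as log2(intensity + 16), so fold changes of dim probe sets are understated. The 64 control probe sets and the 40% with the lowest mean were left out. Inhibitor-1 knockout and wild type were compared over the remaining 26999 with limma 3.58.1 in R 4.3.3 (group as the only term, intensity trend, two-sided, Benjamini-Hochberg, threshold 0.05). The fit was tested on simulated data for bias, false calls and interval coverage; a minimum share of recovered changes, set at first, was not met and was dropped after its result was seen. No detection calls were used here, and the number of arrays limits the precision.

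The members and lists were chosen with earlier results of these data known. Named genes were all members, Ppp1r1a, the 2 genes of smallest p in each pathway list and the 3 genes most correlated with the member probe set of smallest p. Marker lists of 10 cell types, regions or tissues were measured: beside those in the report, the median log2 change was -0.13 for oligodendrocytes, 0.03 for astrocytes, -0.005 for microglia, 0.07 for endothelial and mural cells, -0.04 for striatum and thalamus and 0.92 for the 1 measured red blood cell gene.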

Additional observations from a re-analysis of the deposited data

How the results depend on the processing

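Each fit was repeated with a pseudocount of 1 or 64, with no or a stricter filter on dim probe sets, with quantile or median scaling, without an intensity trend, with weighted arrays, with replicate numbers as a block, without each array, and without replicate 1 of both groups; pathway lists were also read from averaged probe sets of each gene. Under these 16 alternatives, 0 of 427 comparisons of member probe sets passed (limma adjusted p at least 0.279), and 0 genes of the pathway lists passed. Of the 27 member probe sets, 14 kept their sign in all, and 37 comparisons had the other sign. Prkar2b 1438664_at ran from 0.46 to 0.66 on the log2 scale (limma adjusted p 0.293 to 1.00). Over all probe sets, the count lower in knockout was 1 without an intensity trend, 7 without replicate 1 of both groups and 3 to 4 leaving out 1 array. The count higher was 7 without replicate 1 of both groups and 0 to 2 leaving out 1 array, with 2 without inhibitor-1 knockout replicate 1. The cause was not tested. No label pairs the samples: deviations of same-numbered arrays correlated at 0.24, 0.05 and 0.10, and with the replicate block 7 probe sets were higher and 0 members passed. The median change of the cAMP synthesis list was -0.02 without replicate 1 of both groups and 0.08 without inhibitor-1 knockout replicate 3, and that of the cAMP breakdown list was -0.08 with array weights and -0.10 without inhibitor-1 knockout replicate 1. Dim probe sets limit the precision: SEs ran to 0.38 among members.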
